A study of Homo sapiens with 4 samples.

Results

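HEC-1-A cells, an established line from a human endometrial adenocarcinoma, were compared after transfection with a mimic of the tRNA-derived fragment tRF-20-S998LO9D and after transfection with a negative control for mimics. The comparison takes 2 of the 4 libraries of the series, chosen by their labels: the mimic library and the control library of this line, 1 library per group. The remaining pair holds the same transfections in RL-95-2, a second endometrial cancer line. The poly(A)-selected RNA was sequenced, and gene counts and FPKM, which also divide by gene length, were deposited. With 1 library per group no difference has a replicate check, so no p-value is given. The 95% interval beside a log2 ratio covers counting error only and says nothing of the spread between cultures. The labels do not give the dose of the mimic, the time after transfection or the sequence of the mimic or of its control.

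tRNA-derived fragments are short RNAs cut from mature tRNAs or their precursors. Some are bound by Argonaute proteins and can lower matching mRNAs in the way of microRNAs, and others bind RNA-binding proteins or act on translation. A mimic is a synthetic copy of such a fragment brought into the cell by transfection. The fragment itself is a small RNA and was not measured in these mRNA libraries.

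The control library held 33575882 counts and the mimic library 45970431. Levels are given as CPM, each count as its part of the library total after TMM scaling over the pair, and a ratio is log2 of mimic over control with a prior count of 2. Of 22494 listed features, 12956 reached a mean of 1 CPM and 9709 reached 10 CPM; the latter are called well-counted and took 98.5% of the counts of the pair. Epithelial identity genes were measured at 1 CPM or more for 31 of 35 members, and EPCAM, an epithelial adhesion protein, stood at 254 CPM in the control library and 227 CPM with the mimic. PAX8, a transcription factor of the Mullerian tract, stood at 328 and 343 CPM. None of 14 blood and immune markers and none of 10 endothelial markers reached 1 CPM, and their summed levels were 1.58 and 2.00 CPM and 0.209 and 0.609 CPM in the control and mimic library. Of 12 stromal markers 4 did, with a summed level of 8.91 CPM against 14.1 CPM with the mimic, among them COL1A1, the collagen I chain, at 2.92 and 6.22 CPM. The part of those stromal transcripts in the results was not tested. In such bulk RNA, fewer cells of a type and less RNA per cell cannot be told apart.

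The libraries of the pair were close. The correlation of log2(CPM + 1) across features was 0.997 (Pearson, across features, which are not replicates). At a mean of 1 CPM or more, 104 features were at least 2-fold higher in the mimic library (0.803% of the 12956) and 33 lower by that much (0.255%), 1.06% in either direction. Among well-counted features, 720 were higher by 1.2-fold or more (7.42%) and 752 lower (7.75%), 15.2% in either direction, and 84.8% lay within 1.2-fold. With scaling factors fitted over all 4 libraries of the series these counts were 834 and 631. At 1.5-fold these numbers were 70 (0.721%) and 42 (0.433%), 1.15% together. The median log2 ratio of well-counted features was -0.01, with 47.7% above 0 and 52.3% below, and the 5th and 95th percentiles were -0.31 and 0.30.

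The small ratios were wider than counting alone gives. For 5732 well-counted features (59.0%) the counting interval did not include 0. The spread of the log2 ratios, as the median absolute deviation scaled to an SD, was 0.17 over all well-counted features against a median counting error of 0.048. In the most abundant of 5 equal groups of features, at 117 CPM and above, the spread was 0.14 and the counting error 0.023. With 1 library per group, the sources of this excess cannot be told apart.

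**Figure D1:**
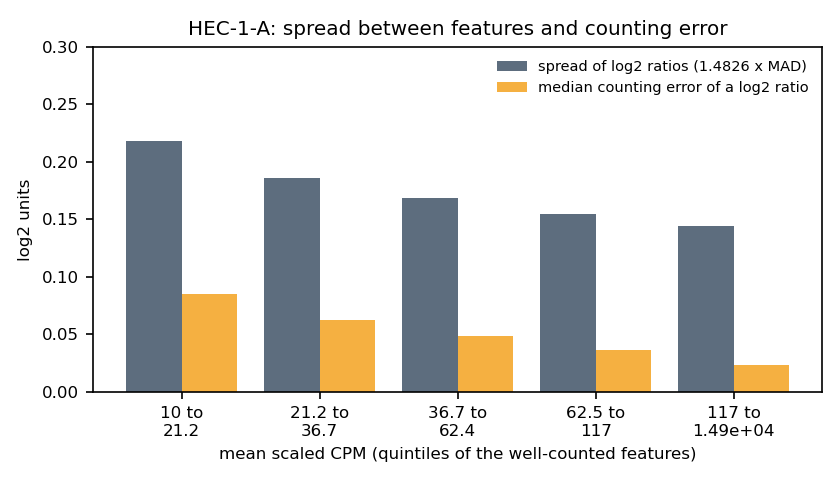
The spread of log2 ratios between features (grey bars) and the median counting error of a ratio (orange bars), both in log2 units, in 5 equal groups of the well-counted features by mean scaled CPM. The counting error is 0.085 in the lowest and 0.023 in the highest group, while the spread goes from 0.22 to 0.14.

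The 2-fold differences sat mostly at low levels. From 1 to under 10 CPM, 94 of 3247 features were 2-fold or more higher and 28 lower; from 10 CPM upward the numbers were 10 and 5 of 9709. From 1 to under 2 CPM the median log2 ratio was 0.08 with 55.0% of 866 features above 0, and from 5 to under 10 CPM it was 0.02 with 51.9% of 1205. Well-counted features were split almost evenly at 1.2-fold, while at 1.5-fold and 2-fold more of them were higher than lower.

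**Figure D2:**
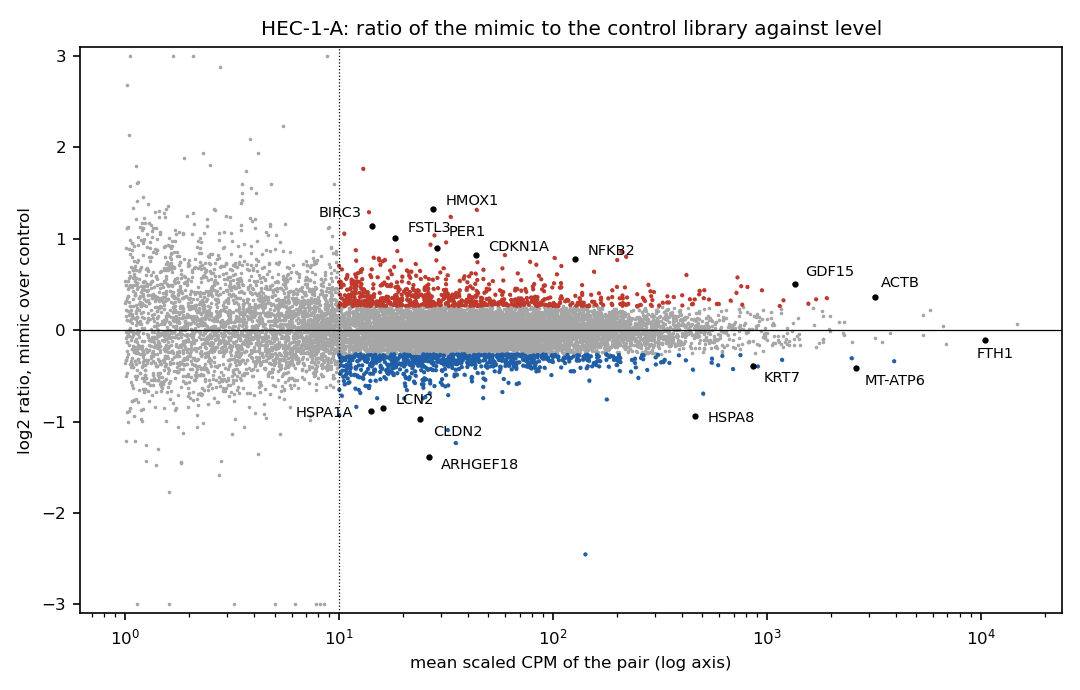
Each point is a feature with a mean of at least 1 CPM; the x axis is mean scaled CPM (log axis) and the y axis the log2 ratio of mimic over control, with ratios past 3 drawn at 3. Red and blue points are well-counted features at least 1.2-fold higher or lower (right of the dotted line at 10 CPM), and black points are named genes; BIVM-ERCC5 and CTD-2207O23.3, each at 0 in 1 library, are left out.

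Among the 12 well-counted features with the highest ratios, HMOX1 came next after the clone-named features CTD-2207O23.3 and RP11-385D13.1. HMOX1, the inducible heme oxygenase (GRCh38 chr22:35380361-35394214, plus strand), had 524 counts in the control library and 1806 with the mimic, or 15.6 and 39.3 CPM. The mimic library was the higher one, with a log2 ratio of 1.33 (interval 1.19 to 1.47). BIRC3, an inhibitor of apoptosis protein that acts as a ubiquitin ligase in tumour necrosis factor signalling (chr11:102317450-102339403, plus strand), stood at 8.91 and 19.8 CPM, a ratio of 1.15 (0.96 to 1.34). FSTL3, a secreted binder of activin, stood at 12.2 and 24.6 CPM (1.01). KLHDC7A was at 6.86 and 14.3 CPM (1.06), and ATP10D, a phospholipid flippase, at 18.4 and 35.2 CPM (0.94). The other members of the 12 were 2 features that share exons with neighbours (RPL17-C18orf32 and ERCC5), LGSN, 2 locus numbers without a gene name (MSTRG.11022 and MSTRG.11721), and the clone-named features RP11-385D13.1 and CTD-2207O23.3.

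CTD-2207O23.3 had 0 counts in the control library and 1025 with the mimic, at least 249-fold higher against a floor of 3 counts per library. CTD-2207O23.3 matched no annotated position, so its overlap with named genes could not be checked. It had 0 counts in both RL-95-2 libraries. RP11-385D13.1 had 197 and 925 counts, a log2 ratio of 1.77. LGSN depended on the deposited measure: its counts gave a ratio of 1.29 and its FPKM 0.33.

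At the other end, ARHGEF18, a guanine nucleotide exchange factor (chr19:7395113-7472477, plus strand), had 1276 counts in the control library and 667 with the mimic, or 38.03 and 14.5 CPM, a log2 ratio of -1.39 (-1.53 to -1.25). The CPM that ARHGEF18 lost was close to that gained by CTD-2207O23.3, which stood at 0 and 22.3 CPM. Whether these features share reads was not measured, so their ratios may not be separate gene differences. CLDN2, the pore-forming claudin of tight junctions, stood at 31.8 and 16.2 CPM (-0.97). LCN2, a secreted protein that binds iron-carrying siderophores, stood at 20.8 and 11.5 CPM (-0.86). ARHGEF18, CLDN2 and LCN2 were each lower in the mimic library by more than the counting interval. HSPA8 and HSPA1A, cytosolic chaperones, were also among the 12 and are described with their group. PPP2R2C, a regulatory subunit of protein phosphatase 2A, had a count ratio of -1.09 and an FPKM ratio of -0.33, so its size depends on the measure. The remaining members were BIVM-ERCC5, MATR3-1 and DNAJC25-GNG10, which share a name with other listed features, and the locus numbers MSTRG.15653, MSTRG.3515 and MSTRG.6259.

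Several of the most extreme ratios belonged to features that share a name with another listed feature. Whether they share reads was not measured. BIVM-ERCC5, a read-through of 2 neighbouring genes, had 1434 counts in the control library and 0 with the mimic, while ERCC5, a DNA repair endonuclease within it, went from 19.8 to 46.8 CPM. Summed over BIVM-ERCC5, BIVM and ERCC5 the level was 119 CPM against 99.9 CPM with the mimic, a log2 ratio of -0.26. MATR3-1, which matched no annotated position, had 240 and 43.8 CPM, a ratio of -2.45. Summed with MATR3, the nuclear matrix protein, the level was 389 and 313 CPM (-0.31), still lower with the mimic. JMJD7-PLA2G4B had 336 counts and 0, and summed with JMJD7 and PLA2G4B the level was 31.7 and 30.7 CPM (-0.04). RPL17-C18orf32 had a ratio of 1.32 alone and -0.14 summed with RPL17 and C18orf32, and DNAJC25-GNG10 -0.93 alone and 0.04 in sum. RPL36A-HNRNPH2 had -3.81 alone and -0.13 in sum, NDOR1-1 -3.02 alone and -0.03 in sum.

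**Figure D3:**
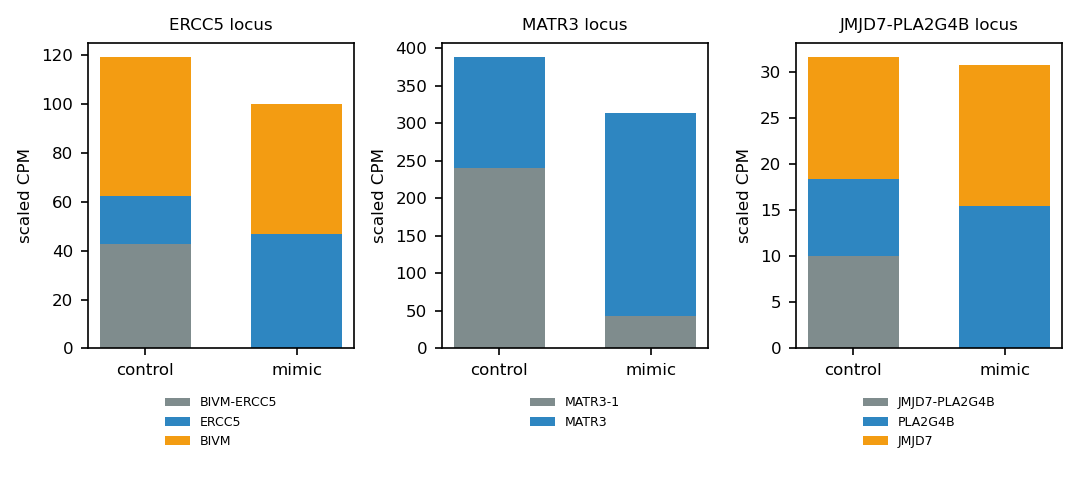
Scaled CPM in the control and the mimic library for 3 groups of features that share a name, stacked by feature. The features within a bar differ between the libraries far more than the height of the bar does: 119 against 99.9 CPM at ERCC5, 389 against 313 CPM at MATR3 and 31.7 against 30.7 CPM at JMJD7-PLA2G4B.

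In all, 24 features had 0 counts in 1 library and at least 20 in the other, 16 of them at 0 in the control and 8 at 0 in the mimic library, and 9 of the 24 shared a name with another feature. Those at 0 in the mimic library included PPAN-P2RY11 (217 counts in the control) and ZNF132, a zinc finger gene (76). Those at 0 in the control included TMEM189-UBE2V1 (191 counts in the mimic library), SCHIP1-1 (154), TRIM39-RPP21 (97), PCDHGB4 of the protocadherin gamma cluster (70), BCL2L2-PABPN1 (62) and KLK10, a secreted protease (35). The sums over the shared names again lay close together for TMEM189-UBE2V1 (-0.15), TRIM39-RPP21 (-0.02) and PPAN-P2RY11 (-0.12). For SCHIP1-1 with SCHIP1 the sum was higher in the mimic library, at 8.52 and 13.4 CPM (0.65).

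The 10 most abundant genes by FPKM were 7 mitochondrially encoded mRNAs, FTH1, FTL and ACTG1. FTH1, the heavy chain of the iron store ferritin, stood at 7913 FPKM in the control library and 7340 with the mimic. The mitochondrial genome encodes 13 proteins of the respiratory chain, and its mRNAs did not share a direction: 4 of 13 were above 0, 1 was 1.2-fold or more higher and 3 lower, with a median of -0.09. MT-CO3, a cytochrome c oxidase subunit, stood at 4402 and 3480 CPM (-0.34), and MT-ND5, a complex I subunit, at 1677 and 2139 CPM (0.35). MT-ATP8 and MT-ATP6 overlap on the same strand, so their reads cannot be told apart fully; together they stood at 3612 and 2631 CPM (-0.46). MT-CO1, the most abundant feature, differed little, at 14486 and 15224 CPM (0.07).

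In CPM the largest gains after ACTG1 (5363 and 6256 CPM) and ACTB (2793 and 3589 CPM), the cytoplasmic actins, and MT-CO1 and MT-CO2 were those of GDF15, MT-ND5, UPP1, CLDN1, CYR61 and H1F0. GDF15, a secreted stress cytokine, stood at 1116 and 1581 CPM (0.50), and UPP1, uridine phosphorylase, at 1502 and 1899 CPM (0.34). CLDN1, a sealing claudin, stood at 1407 and 1722 CPM (0.29), and CYR61, a matricellular protein, at 586 and 874 CPM (0.58). The largest losses besides mitochondrial mRNAs and FTH1 were those of EEF1A1 (7245 and 6544 CPM, -0.15) and EEF2 (2758 and 2230 CPM, -0.31), the translation elongation factors, HSPA8, RPL4 and the locus number MSTRG.15566.

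Of 60 gene lists with a member at 1 CPM or more, 19 had a median log2 ratio of 0.1 or above, 2 of -0.1 or below, and 39 lay between. They stand beside a median of -0.01 over all well-counted features and of -0.004 over all features at 1 CPM or more, of which 49.1% were above 0. The share of a list past 1.2-fold stands against the 7.42% higher and 7.75% lower of all well-counted features. The list medians take members from 1 CPM, and from 1 to under 2 CPM the median of all features was 0.08. The numbers 19 and 2 hold for that minimum only, and lists crossed the limit of 0.1 in size at 10 CPM. With well-counted members only, the Wnt median went from -0.08 to -0.19 and the Notch median from -0.01 to -0.11, both past -0.1. The EGR, KLF, NR4A and IER median went from 0.13 to 0.06, under 0.1, and the p53 median from 0.13 to 0.17. The circadian clock list, among the 19, was collected after its values were seen.

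**Figure D4:**
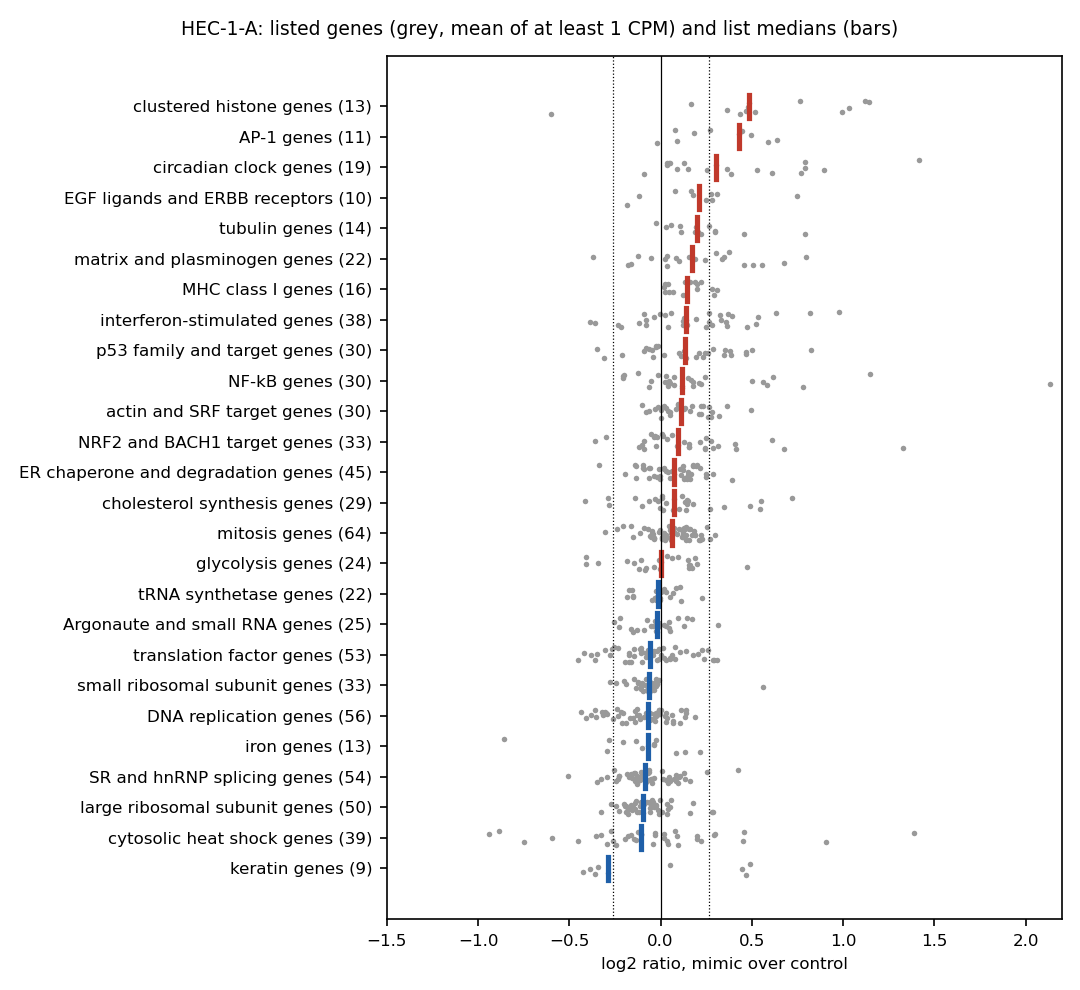
Log2 ratios (x axis) of the members of 26 gene lists measured at a mean of at least 1 CPM (grey points, number in brackets) with the median of each list (bar; red above 0, blue below 0). Dotted lines mark 1.2-fold; medians go from 0.49 for the clustered histone genes to -0.29 for the keratin genes, and most points lie inside the dotted lines.

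Cytosolic heat shock genes encode the chaperones that fold new and damaged proteins, and those of the HSP70 system described first were lower in the mimic library. HSPA8, the constitutive HSP70 (chr11:123057489-123063230, minus strand), had 20342 counts in the control library and 14556 in the deeper mimic library, or 606 and 316 CPM, a log2 ratio of -0.94 (-0.97 to -0.91). HSPA1A and HSPA1B, the inducible HSP70 genes, are near-identical copies whose reads may be split between them; together they stood at 49.1 and 28.3 CPM (-0.80). DNAJA1, an HSP40 partner of HSP70, stood at 140 and 102 CPM (-0.45), and BAG1, a nucleotide exchange factor of HSP70, at 36.7 and 24.2 CPM (-0.60). List members were named in part for their low ratios, so the shared direction of these 5 follows in part from that choice. Over the list, 11 of 33 well-counted members were above 0 and 22 below. Of the 33, 8 were at least 1.2-fold lower and 2 at least 1.2-fold higher. The median was -0.11 over the 39 at 1 CPM or more. HSP90AA1 and HSP90AB1, the abundant HSP90 chaperones, were within 1.2-fold at -0.11 and -0.13, as was HSF1, the heat shock transcription factor, at -0.11. The well-counted members at least 1.2-fold higher were DNAJB2 (41.4 and 56.7 CPM, 0.45) and HSPA4L (23.6 and 29.1 CPM, 0.30). Below 10 CPM, the small heat shock proteins HSPB1 (6.35 and 11.96 CPM, 0.91) and HSPB8 (1.91 and 5.09 CPM, 1.39), named here after their values were seen, were higher in the mimic library.

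The promoters of these chaperone genes are shown because heat shock elements, pairs of inverted GAA units bound by HSF1, are the textbook feature that the group shares. The motif GAANNTTC, which reads the same on both strands, was searched in RefSeq windows (GRCh38.p14) from 250 bases before to 50 bases after the start. It was present for 15 of the 36 listed heat shock genes with a window, against 8.21% of 27305 genes with a window. In the window used for each gene, the nearest match wholly before the start is in capitals, with 12 bases on each side. Stretches are given for 4 genes that were lower and for HSPB1, which was higher:
HSPA8 (chr11:123062167-123062198, minus strand, match begins 50 bases before the start): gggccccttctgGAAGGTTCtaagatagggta
HSPA1A (chr6:31815425-31815456, plus strand, 106 bases before): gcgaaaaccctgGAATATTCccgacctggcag
HSPA1B (chr6:31827621-31827652, plus strand, 105 bases before): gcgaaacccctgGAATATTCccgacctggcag
DNAJA1 (chr9:33025063-33025094, plus strand, 198 bases before): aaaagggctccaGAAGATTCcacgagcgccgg
HSPB1 (chr7:76302479-76302510, plus strand, 182 bases before): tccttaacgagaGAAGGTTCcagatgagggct

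A match is a description of the letters and not a bound site. Whether the motif has a part in the ratios was not tested. Of the listed heat shock genes with a window and at 1 CPM or more, the 13 with the motif had a median log2 ratio of -0.13 with 4 above 0, and the 20 without it had -0.01 with 10 above 0.

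Endoplasmic reticulum chaperones, which fold secreted and membrane proteins, lay slightly to the other side. Of 45 members at 1 CPM or more 29 were above 0, with a median of 0.07; 2 of 44 well-counted members were 1.2-fold or more higher and 1 lower. CALR, calreticulin, stood at 418 and 548 CPM (0.39), and HSP90B1, the HSP90 of that compartment, at 704 and 838 CPM (0.25). TXNDC5, a disulfide isomerase, was the lowest at 225 and 178 CPM (-0.34). The ER stress element, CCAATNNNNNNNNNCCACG on either strand, was present in the windows of 8 of 43 listed genes, among them CALR, HSP90B1 and HSPA5, against 0.0916% of all genes. At 1 CPM or more, the 8 genes with the element had a median of 0.15 with 6 above 0. The 35 without it had 0.05 with 21 above 0, and the split was not tested. The stretches of CALR and HSP90B1 are shown because these were 2 of the 4 highest members by ratio, and that of HSPA5 because it encodes the main chaperone of the compartment:
CALR (chr19:12938372-12938414, plus strand): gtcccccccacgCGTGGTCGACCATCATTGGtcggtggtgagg
HSP90B1 (chr12:103930309-103930351, plus strand): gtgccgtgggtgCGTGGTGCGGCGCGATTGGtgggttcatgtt
HSPA5 (chr9:125241379-125241421, minus strand): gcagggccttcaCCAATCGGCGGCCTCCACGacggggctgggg

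AP-1 transcription factors, dimers of JUN, FOS, ATF and MAF proteins that respond to growth and stress signals, were higher as a group. Of 11 members at 10 CPM or more 10 were above 0 and 7 at least 1.2-fold higher, with none at least 1.2-fold lower and a median of 0.43. FOSB stood at 9.87 CPM in the control library and 15.4 CPM with the mimic (0.64), ATF3 at 32.4 and 48.7 CPM (0.59), FOSL2 at 232 and 328 CPM (0.50), and JUN at 161 and 218 CPM (0.44). JUNB was level, at 84.7 and 83.5 CPM (-0.02). Immediate early genes outside AP-1 were mixed: of 23 well-counted members, 7 were 1.2-fold or more higher and 2 lower. PPP1R15A, a phosphatase subunit of the stress response, stood at 680 and 945 CPM (0.47), and RHOB, a small GTPase, at 434 and 587 CPM (0.44). EGR1, a zinc finger factor, was lower in the mimic library at 328 and 298 CPM (-0.14), and IER5L the lowest at 187 and 142 CPM (-0.40).

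Among EGF-family ligands and their receptors 8 of 10 were above 0, with a median of 0.21. AREG, amphiregulin, stood at 58.4 and 98.2 CPM (0.75), and EREG, epiregulin, at 493 and 586 CPM (0.25). The receptors EGFR (1036 and 1097 CPM, 0.08) and ERBB2 (143 and 131 CPM, -0.12) were within 1.2-fold. Of 17 well-counted feedback genes of the MAP kinase pathway, 3 were at least 1.2-fold higher and 1 lower by that much, the latter being SPRED1 (61.0 and 47.1 CPM, -0.37), an inhibitor of the pathway.

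NF-kB genes, the transcription factors of inflammatory signalling with their inhibitors and targets, were above 0 for 23 of 30 members, with a median of 0.12. Of 23 well-counted members 4 were at least 1.2-fold higher and none lower. NFKB2, the p100 precursor of the alternative pathway, stood at 93.5 and 161 CPM (0.78, interval 0.72 to 0.84), and RELB, its partner, at 21.2 and 31.3 CPM (0.56). CSF1, a macrophage growth factor, stood at 20.3 and 30.4 CPM (0.58), beside BIRC3 at 1.15. TNIP1, an inhibitor of the pathway, and SOD2, the mitochondrial superoxide dismutase, were the lowest at -0.20 each. The kappa B motif, GGGNNTTTCC on either strand, was present in the windows of 16 of 35 listed genes, against 2.33% of all genes. It is shown for the 2 well-counted members with the highest ratios and for TNIP1, which was lower:
NFKB2 (chr10:102394488-102394521, plus strand): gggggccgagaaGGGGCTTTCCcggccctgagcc
BIRC3 (chr11:102317273-102317306, plus strand): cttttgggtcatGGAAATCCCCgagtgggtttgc
TNIP1 (chr5:151081055-151081088, minus strand): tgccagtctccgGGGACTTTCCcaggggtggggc

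Of the listed NF-kB genes with a window and at 1 CPM or more, the 11 with the motif had a median of 0.21 with 10 above 0, and the 14 without it 0.04 with 10 above 0. Whether the kappa B motif has a part in these values was not tested. IL32, a cytokine with the motif in its window, was named after its values were seen. It had 12 counts in the control library and 80 with the mimic.

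Interferon-stimulated genes, the antiviral programme that double-stranded RNA can induce, had a median of 0.14 with 28 of 38 above 0; 8 of 26 well-counted members were at least 1.2-fold higher and none lower. The differences were small. ISG15, a ubiquitin-like modifier, stood at 13.4 and 19.2 CPM (0.52), and DDX58, which encodes the RNA sensor RIG-I, at 23.7 and 30.6 CPM (0.37). EIF2AK2, the kinase activated by double-stranded RNA, was lower at 133 and 114 CPM (-0.22). MX1, a classical marker of the response, was low in both libraries at 3.76 and 4.83 CPM. MHC class I genes, which present peptides to T cells, were above 0 for all 16 members at 1 CPM or more, with a median of 0.15 and 2 of 12 well-counted members past 1.2-fold. B2M, the light chain, stood at 403 and 491 CPM (0.28), while TAP1, a peptide transporter, was level at 49.2 and 50.1 CPM (0.03). HLA-B and HLA-C resemble each other closely, so their own values are uncertain.

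p53 targets, which stop the cell cycle or drive cell death after damage, were higher for 9 of 28 well-counted members and lower for 2 at 1.2-fold, with a median of 0.13 over 30. CDKN1A, the cell cycle inhibitor p21 (chr6:36676460-36687339, plus strand), stood at 31.5 and 55.7 CPM (0.82, interval 0.72 to 0.93). SFN, the 14-3-3 sigma protein, stood at 182 and 252 CPM (0.47), and PMAIP1, the death protein NOXA, at 90.5 and 125 CPM (0.47). FAS, a death receptor, was lower in the mimic library at 41.3 and 33.3 CPM (-0.31). MDM2, a ubiquitin ligase, was at 82.7 and 89.4 CPM (0.11), within 1.2-fold. The list therefore held members on both sides.

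**Figure D5:**
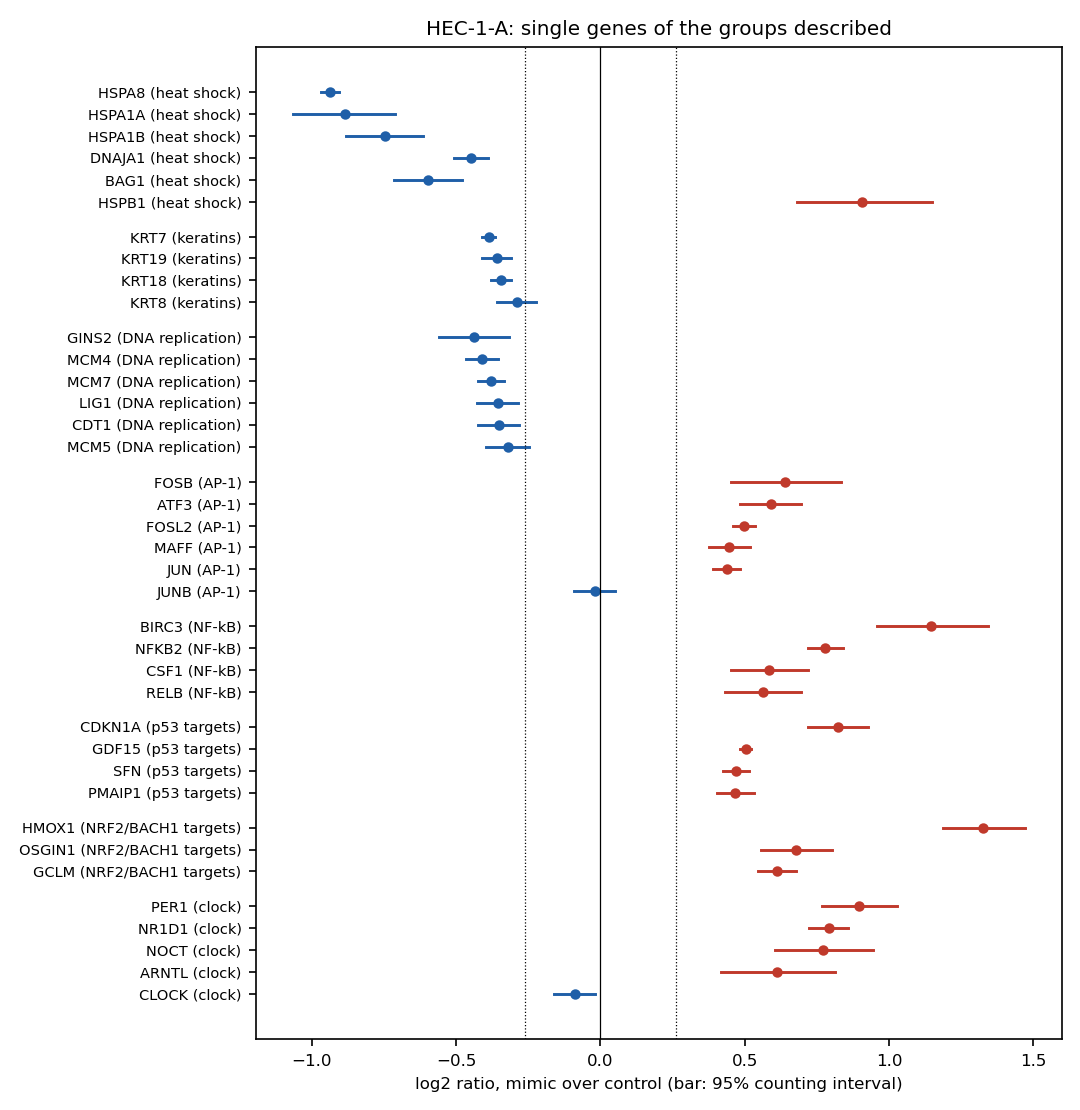
Log2 ratios of mimic over control for single genes of 8 groups (points), each with its 95% counting interval (bars); red is above 0, blue below, and dotted lines mark 1.2-fold. The intervals cover counting error in 1 library per group and not the spread between cultures; HMOX1 at 1.33 and HSPA8 at -0.94 mark the ends.

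NRF2 and BACH1 target genes, the antioxidant and heme response, had a median of 0.10 with 22 of 33 above 0; 7 of 32 well-counted members were at least 1.2-fold higher and 2 lower. Behind HMOX1 came OSGIN1, an oxidative stress-induced growth inhibitor, at 23.7 and 37.9 CPM (0.68), and GCLM, a subunit of the enzyme that starts glutathione synthesis, at 82.6 and 126 CPM (0.61). BACH1, the repressor of HMOX1, was the lowest member, at 128 and 99.8 CPM (-0.36), and NFE2L2, which encodes NRF2, stood at 147 and 164 CPM (0.16). Iron genes were below 0 for 10 of 13 members, with a median of -0.07 and 3 at least 1.2-fold lower: LCN2, SLC25A37, the mitochondrial iron importer (69.8 and 56.9 CPM, -0.29), and TFRC, the transferrin receptor (680 and 560 CPM, -0.28).

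Sterol genes were mixed. STARD4, a cholesterol carrier, stood at 13.9 and 19.5 CPM (0.49), but SQLE, squalene epoxidase of the synthesis pathway, was lower at 17.9 and 13.5 CPM (-0.41). Over the list 5 of 26 well-counted members were at least 1.2-fold higher and 3 lower, with a median of 0.07.

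DNA replication genes showed a small shift across many members. Of 56 members, all well-counted, 14 were above 0, 10 were at least 1.2-fold lower and none higher, with a median of -0.07. The 6 subunits of the replicative helicase, MCM2 to MCM7, were all below 0, and their summed level was 1095 CPM against 913 CPM with the mimic (-0.26, interval -0.28 to -0.24). MCM4 stood at 154 and 116 CPM (-0.41), MCM7 at 226 and 173 CPM (-0.38), and MCM6 at 182 and 173 CPM (-0.07). GINS2, another helicase component, was the lowest at 32.6 and 24.1 CPM (-0.44), and LIG1, the ligase that joins Okazaki fragments, stood at 89.1 and 69.6 CPM (-0.36). PCNA, the sliding clamp, was lower by less, at 157 and 144 CPM (-0.13). Mitosis genes did not follow: 45 of 64 were above 0, with a median of 0.06, 2 at least 1.2-fold higher and 1 lower. MKI67, the proliferation marker, was level at 770 and 801 CPM (0.06), and CCNB1, the mitotic cyclin, at 148 and 158 CPM (0.10). CCND1, cyclin D1 of the G1 phase, stood at 806 and 724 CPM (-0.15).

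Clustered histone genes, whose mRNAs mostly lack a poly(A) tail and are therefore caught in part by this selection, had a median of 0.49 with 12 of 13 members at 1 CPM or more above 0. Only 4 were well-counted, and 3 of them at least 1.2-fold higher. HIST1H1C, a linker histone, stood at 21.1 and 35.9 CPM (0.76), and HIST1H2BK at 17.4 and 24.9 CPM (0.52). H1F0, a linker histone of non-dividing cells that is listed with them and stands outside the clusters, stood at 806 and 1092 CPM (0.44). Histone genes resemble each other closely, so the split of reads between them is uncertain.

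Most ribosomal protein mRNAs lay slightly below 0. Of 33 small subunit genes 1 was above 0, with a median of -0.06, and that exception, RPS27L, is a paralog at 6.97 and 10.3 CPM (0.56). Of the 32 well-counted members only RPS29 passed 1.2-fold, at 62.1 and 51.3 CPM (-0.28). Of 50 large subunit genes 10 were above 0, with a median of -0.09, and 2 passed 1.2-fold in each direction. RPL4 stood at 1311 and 1047 CPM (-0.32), RPL5 at 824 and 682 CPM (-0.27) and RPL21 at 195 and 238 CPM (0.28). The summed level of the large subunit genes was 25131 CPM in the control library and 23117 CPM with the mimic (-0.12).

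Translation factors shared that side. Of 53 members 19 were above 0, with a median of -0.06, 8 at least 1.2-fold lower and 3 higher. The subunits of EIF3, which brings the small ribosomal subunit to mRNAs, were below 0 for 10 of 13, and the summed level was 2944 and 2582 CPM (-0.19, interval -0.20 to -0.18). EIF3D was the lowest at 268 and 196 CPM (-0.45), and EIF3K the highest at 120 and 146 CPM (0.29). EIF5, the GTPase activator of initiation, stood at 164 and 123 CPM (-0.42), and EIF4B at 671 and 514 CPM (-0.38). EIF4E, the cap-binding protein, stood at 103 and 120 CPM (0.23), while its FPKM ratio was -0.82. tRNA synthetase genes were level, with a median of -0.01 over 22 members and none past 1.2-fold.

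Genes that handle small RNAs and tRNAs did not stand apart. The 25 Argonaute and small RNA genes had a median of -0.02, and 1 passed 1.2-fold, PRKRA, a partner of Dicer, at 39.1 and 48.6 CPM (0.31). AGO1 stood at 73.3 and 65.5 CPM (-0.16), and DICER1 at 79.1 and 82.0 CPM (0.05). Among 36 well-counted genes of tRNA cleavage and modification none was at least 1.2-fold higher and 3 were lower, TSEN54, a subunit of the tRNA splicing endonuclease, the most, at 36.7 and 28.1 CPM (-0.39).

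Keratins of simple epithelia were lower together. KRT7 stood at 976 CPM in the control library and 746 CPM with the mimic (-0.39), KRT19 at 175 and 136 CPM (-0.36), KRT18 at 365 and 288 CPM (-0.34) and KRT8 at 99.0 and 80.9 CPM (-0.29). All 4 were at least 1.2-fold lower, and their sum was 1615 and 1251 CPM (-0.37, interval -0.39 to -0.35). KRT10, a keratin of stratified epithelia, was higher at 21.1 and 29.3 CPM (0.47), and KRT80 was level at 546 and 566 CPM (0.05). Over all 9 keratins at 1 CPM or more the median was -0.29. Among other epithelial genes, CDH1, E-cadherin, was level at 147 and 149 CPM (0.02).

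Tubulin genes and the targets of actin and serum response factor signalling lay mostly above 0. Tubulin genes were above 0 for 13 of 14 members, with a median of 0.20, 4 of 10 well-counted members at least 1.2-fold higher and none lower. TUBA4A stood at 10.6 and 18.4 CPM (0.79), and TUBA1B, the main alpha tubulin, at 973 and 1122 CPM (0.20). Actin and serum response factor targets were above 0 for 25 of 30, with a median of 0.11 and 6 of 28 past 1.2-fold, all higher. Their median was 0.07 on log2(FPKM + 1) and on log2(FPKM + 0.1). TPM1, a tropomyosin, stood at 114 and 160 CPM (0.49), and ACTB at 2793 and 3589 CPM (0.36).

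Matrix and plasminogen genes were above 0 for 17 of 22, with a median of 0.17; 7 of 19 well-counted members were at least 1.2-fold higher and none lower. THBS1, thrombospondin, stood at 44.7 and 71.5 CPM (0.68), and PLAUR, the urokinase receptor, at 13.2 and 18.8 CPM (0.51). PLAU, urokinase, was level at 339 and 344 CPM (0.02). Stromal markers, summed at 8.91 and 14.1 CPM, were higher in the same library, and their part in the matrix values was not tested. Integrin genes gave 2 of 16 past 1.2-fold in each direction, with ITGB8, a subunit of a receptor that activates TGF-beta, the lowest at 296 and 206 CPM (-0.52). Among Wnt genes 4 of 13 well-counted members were at least 1.2-fold lower and none higher, with WNT7B, a ligand, at 54.5 and 39.4 CPM (-0.47) and LRP5, a co-receptor, at 124 and 101 CPM (-0.30).

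Circadian clock genes were collected after their values were seen. Of 19 members at 1 CPM or more 18 were above 0, with a median of 0.30, and 7 of 15 well-counted members were at least 1.2-fold higher. PER1, a repressor of the clock, stood at 19.97 and 37.2 CPM (0.90), NOCT, a clock-controlled phosphatase, at 12.1 and 20.7 CPM (0.77), and DBP, an output factor, at 38.1 and 49.1 CPM (0.37). NR1D1, the nuclear receptor REV-ERB alpha, stood at 74.6 and 129 CPM (0.79); it overlaps THRA on the other strand, and without strand information the reads of the overlap cannot be told apart. CLOCK, the activator, was level at 85.9 and 80.7 CPM (-0.09), and its partner ARNTL stood at 9.42 and 14.4 CPM (0.61). The time at which each culture was collected is not given in the sources used here.

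Energy metabolism differed little. Glycolysis genes had a median of 0.00 with 12 of 24 above 0. Nuclear-encoded respiratory chain genes were above 0 for 59 of 75 with a median of 0.06, and proteasome genes for 26 of 42 with a median of 0.07; after trends with GC content and transcript length were removed, the medians were 0.00 and 0.01. Those trends were small over all features: in 5 equal groups the median was 0.03 at the lowest GC content and -0.02 at the highest, and 0.03 in the shortest and -0.03 in the longest transcripts. With the trends removed the medians of the large and small ribosomal subunit genes were -0.14 and -0.12.

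In RL-95-2 the same transfections gave ratios of the other sign for several of these genes. HSPA8 stood at -0.94 here and 3.66 there, HMOX1 at 1.33 and -2.47, BIRC3 at 1.15 and -1.99, and CDKN1A at 0.82 and -2.58. The median of the AP-1 list was 0.43 in HEC-1-A against -1.15, and that of DNA replication genes -0.07 and 0.64. The medians of the clustered histone genes (0.49 and 0.57) and the large ribosomal subunit genes (-0.09 and -0.20) had the same sign in both lines. H1F0, listed with the histone genes, held 806 of their summed 892 CPM in the HEC-1-A control library. It stood at 0.44 here and -2.39 in RL-95-2. With 1 library per group none of these differences between the lines could be tested.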

How the data were processed

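Poly(A) RNA of HEC-1-A and RL-95-2 cells was sequenced as 4 libraries, 1 per line and transfection. Per the submitters' processing notes, reads were handled with CASAVA and HISAT2 on GRCh38 (hg38). Which program counted the reads, on which annotation and whether by strand, is not given here. The authors deposited 1 table of gene counts and 1 of FPKM, with columns named by library. Of 22494 features, 2765 carry locus numbers, 27 carry symbols turned into dates, and 18934 matched a GENCODE 29 symbol (GRCh38), from which positions, overlaps, length and GC content were taken.

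Counts of the HEC-1-A pair were scaled by TMM (edgeR 4.0.16, R 4.3.3; factors 0.999 and 1.001). The log2 ratio used a prior count of 2, and its 95% interval is the exact conditional binomial one from the counts of both libraries. No test was run, since each group has 1 library. Called features were at least 2-fold apart at a mean of 1 CPM or 1.2-fold at 10 CPM. Scaling and intervals were tested on simulated data. The deeper mimic library (45970431 against 33575882 counts) has the smaller counting error; 3 counts, the floor for a feature at 0, are 0.0894 CPM in the control and 0.0652 CPM in the mimic library.

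Named genes were the 12 highest and 12 lowest log2 ratios at 10 CPM, the 10 largest gains and losses in CPM, up to 8 per direction at 0 in 1 library, the 10 most abundant by FPKM, and, for each list described, its 4 highest and 4 lowest well-counted members and its defining genes. Some genes that this rule names are not reported here. The comparison, the lists and the rules were chosen with earlier results of these data known. Alternatives were other scalings, priors, minimum levels and folds, the deposited FPKM with a pseudocount of 1 or 0.1, thinning of the mimic library, removal of GC and length trends, and, chosen after seeing the data, only features that share no name or same-strand exon (of at least 20 bases) with another. Promoter windows are those of RefSeq for GRCh38.p14 (35116 windows). Features named by locus number are given as listed.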

Additional observations from a re-analysis of the deposited data

Results flagged for a closer look

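The lines were compared over the genes named above that carry a gene symbol, averaged 10 CPM or more in each line and share no name or same-strand exon with another feature. For 15 of these, the log2 ratio in HEC-1-A had the opposite sign in RL-95-2 and both were at least 1.5-fold. Many were named for their HEC-1-A ratios, and the number past 1.5-fold with the same sign is not given here. The share over all features is not given either, so the 15 do not show how common opposite signs were. With 1 library per group and line the difference was not tested. Below 0 here and above 0 in RL-95-2 were HSPA8 (-0.94 and 3.66), HSPA1A (-0.89 and 2.40), HSPA1B (-0.75 and 2.38) and BAG1 (-0.60 and 1.65), all of the HSP70 system. On the opposite side, above 0 here and below 0 in RL-95-2, were the AP-1 genes ATF3 (0.59 and -4.95) and FOSB (0.64 and -4.78), the oxidative stress genes HMOX1 (1.33 and -2.47), OSGIN1 (0.68 and -1.10) and GCLM (0.61 and -0.65), and the NF-kB genes NFKB2 (0.78 and -0.67) and BIRC3 (1.15 and -1.99). The same held for CDKN1A (0.82 and -2.58), AREG (0.75 and -1.62), FSTL3 (1.01 and -1.47) and ARNTL (0.61 and -1.12). HSPA1A and HSPA1B are near-identical copies and count as 1 observation.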

How the results depend on the processing

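The 137 features at least 2-fold apart (104 higher and 33 lower, 75.9% higher) became 26 on log2(FPKM + 1) (13 and 13, 50% higher), 29 at a minimum mean of 5 CPM (18 and 11, 62.1% higher), 1834 with no minimum (1129 and 705) and 594 at 1.5-fold (405 and 189). The 1472 well-counted features at least 1.2-fold apart became 498 at a minimum of 50 CPM (246 and 252). Every other alternative run kept both counts within 1.5 times, but TMM over all 4 libraries turned the 720 higher and 752 lower (48.9% higher) into 834 and 631 (56.9% higher). Of the list medians of at least 0.1 in size, 2 had the other sign with members at 10 CPM or more only: the mesenchymal switch genes went from 0.29 (11 members) to -0.10 (5), and the COX and prostaglandin genes from 0.18 (6) to -0.022 (3). Medians nearer 0 also changed sign under some alternatives, such as that of the RNA sensing genes, which went from 0.07 to -0.02 (12 members) at 10 CPM or more. Among the scalings, TMM over all 4 libraries moved the median of all well-counted features the furthest, from -0.010 to 0.010. List medians such as the -0.07 of the DNA replication genes are to be read beside that move. Counts and FPKM differed by more than 1.2-fold in their ratio for 155 well-counted features (1.60%), and 1282 of 1470 features past 1.2-fold by counts were past it on the same side by FPKM; the cause was not tested. No paired analysis was possible because each group has 1 library. Depth limits the features below 10 CPM, and no alternative stands in for a second culture.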

Other observations

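The counts and the FPKM of a gene come from the same libraries but did not always give the same ratio. Apart from LGSN and PPP2R2C, the well-counted symbols furthest apart were EIF4E (0.23 by counts and -0.82 by FPKM), CA5B, a mitochondrial carbonic anhydrase (-0.28 and -1.31), HSD17B1, which makes estradiol from estrone (-0.13 and 0.87), ZNF641 (0.03 and 1.005) and CFLAR, an inhibitor of death receptor signalling (0.17 and 0.98). For these genes the direction or the size of the difference rests on the measure used.

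Zinc finger genes with a ZNF symbol, a family that no list held and that was counted after values were seen, were below 0 for 148 of 228 well-counted members, with a median of -0.06; 31 were at least 1.2-fold lower and 6 higher, beside 7.75% and 7.42% of all well-counted features.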
